A study of Homo sapiens with 8 samples.

Results

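The 10 genes described here encode the cyclooxygenases PTGS1 and PTGS2, the prostaglandin E synthases PTGES, PTGES2 and PTGES3, the prostacyclin synthase PTGIS and the EP receptors PTGER1, PTGER2, PTGER3 and PTGER4. They were chosen by name, as enzymes and receptors linked to the mechanical response of podocytes, and every gene had its own row among the 29004 loci of the deposited gene table. The transcriptome data came from 8 samples of AB8/13, an immortalized human podocyte line, made stable for a lentiviral construct that expresses wild-type LATS2 under doxycycline. Expression was switched on in 4 samples, called LATS2 OE, by 8 h of doxycycline at 125 ng/mL, and the other 4 samples of the same line were untreated. All cells were grown on plastic at 33 °C up to 70% confluence, and every LATS2 OE sample but no untreated sample received doxycycline, so the drug and the construct cannot be told apart. LATS2 is a kinase of the Hippo pathway that keeps YAP out of the nucleus by phosphorylation, and the comparison asks which transcripts differ early after this pathway is switched on.

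Prostaglandins are made from arachidonic acid, which phospholipases A2 free from membranes. The cyclooxygenases turn it into an unstable intermediate, from which PGE synthases make prostaglandin E2 and PTGIS makes prostacyclin. Prostaglandin E2 acts through the EP receptors, of which EP2 and EP4 raise cAMP, EP3 mostly lowers it and EP1 signals through calcium. In the glomerulus, PTGS2 and EP4 are known for their induction in podocytes under mechanical stretch, and prostanoids regulate glomerular blood flow.

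Values are FPKM, that is fragment counts normalized for transcript length and sequencing depth, and the table gives 1 value per group, pooled by the authors over the 4 samples. No SD, standard error or test across samples could be computed, so no difference below has a replicate check, and fewer cells of a type and less RNA per cell cannot be told apart. Neither the origin of the samples of a group (separate cultures or not) nor whether the line is 1 clone is known here, and the depth of each sample is unknown. Most cells of at least 1 FPKM lost their decimal point before deposit. Such a level is known only up to a power of 10, and for the chosen genes all readings that its digits allow are given. Where a ratio was affected, the reading nearest to equal levels in both groups was taken, which is right as long as the groups differ by less than 3.16-fold. Values below 1 FPKM were intact. Levels are called higher or lower past the threshold where the log2 ratio of LATS2 OE over untreated cells was at least 0.32 in either direction.

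The targeted gene LATS2 could not be checked firmly in this way. Its digits allow 2.64, 26.4 or 264 FPKM in untreated cells and 5.31, 53.1 or 531 FPKM in LATS2 OE cells, hence LATS2 OE levels 2.01-fold, 20.1-fold or 201-fold higher, but also 4.97-fold or 49.7-fold lower. The YAP targets CTGF and ANKRD1 had the same limit. The nearest reading was 1.98-fold higher in LATS2 OE cells for CTGF and 2.25-fold higher for ANKRD1, but the next readings were 5.06-fold and 4.44-fold lower, so the digits do not settle their direction. For any gene that truly differed by more than 3.16-fold, the nearest reading could be wrong, in its direction too, and the ratios below that rest on it share this limit. The YAP target CYR61 had an intact level of 1181 FPKM in untreated cells, and it was lower in LATS2 OE cells in every reading, by 2.55-fold or more. Of 9 podocyte markers, 3 (SYNPO, PODXL and CD2AP) had at least 1 FPKM. The slit diaphragm gene NPHS1 was near 0, with 0.00875 FPKM in untreated and 0.00616 FPKM in LATS2 OE cells. WT1 stood at 0.413 and 0.412 FPKM. At least 1 FPKM was found for 0 of 5 endothelial, 2 of 5 mesangial and stromal, 1 of 5 tubular and 1 of 5 leukocyte markers, and the summed endothelial markers had 0.0944 FPKM in untreated and 0.0909 FPKM in LATS2 OE cells. The summed levels of the other marker lists contain cells open by a power of 10, and in their lowest readings they were 11.0 and 11.1 FPKM for podocyte, 7.50 and 8.16 FPKM for mesangial and stromal, 1.33 and 1.29 FPKM for tubular and 2.35 and 2.59 FPKM for leukocyte markers. In the highest readings they were 1002 and 977 FPKM for podocyte markers, the opposite order of the groups, 737 and 803 FPKM for mesangial and stromal, 132 and 128 FPKM for tubular and 208 and 227 FPKM for leukocyte markers. The part of other cell types in the results was not tested.

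Both cyclooxygenase transcripts were below 1 FPKM in untreated cells, and the inducible one, PTGS2, was the more abundant of the pair per length. PTGS2, the cyclooxygenase that cytokines, growth factors and stretch induce, stood at 0.894 FPKM in untreated cells, above 56.5% of all loci. In LATS2 OE cells its digits allow 1.29, 12.9 or 129 FPKM. PTGS2 was therefore higher in LATS2 OE cells in every reading, and by 1.44-fold in the reading nearest to equal levels, a log2 ratio of 0.53. The next reading would be a 14.4-fold difference. PTGS1, the cyclooxygenase that most cells express constantly, stood at 0.604 FPKM in untreated and 0.699 FPKM in LATS2 OE cells. Its level was 1.16-fold higher in LATS2 OE cells, a log2 ratio of 0.21, which lies within the threshold. The level of PTGS2 was 1.48 times that of PTGS1 in untreated cells and 1.84 times in LATS2 OE cells in the nearest reading. The sum of both transcripts was 1.498 FPKM in untreated and 1.99 FPKM in LATS2 OE cells in that reading, 1.33-fold higher.

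In hg19, the locus of PTGS2 in the table runs from 186640944 to 186649559 on chromosome 1 (minus strand). PTGS1 lies on the plus strand of chromosome 9 from 125132809 to 125157982. Both are annotated as protein-coding, and no other annotated gene overlaps the PTGS2 locus, whereas a lncRNA of 221 bp lies on the same strand within that of PTGS1.

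The prostaglandin E synthases covered the widest span of levels among the enzymes. PTGES3, which is also the HSP90 cochaperone p23, was abundant, with an intact level of 261 FPKM in LATS2 OE cells. Its digits allow 2.64, 26.4 or 264 FPKM in untreated cells. In the nearest reading, 264 FPKM, LATS2 OE cells were 1.01-fold lower, a log2 ratio of -0.02. PTGES2, the membrane-associated PGE synthase 2, had digits that allow 4.52, 45.2 or 452 FPKM in untreated and 4.31, 43.1 or 431 FPKM in LATS2 OE cells. It was 1.05-fold lower in LATS2 OE cells in the nearest reading, a log2 ratio of -0.07. In the nearest reading, which favours equal levels by its rule, both of these synthases stood close to equal levels. In the next reading LATS2 OE cells would be 9.88-fold higher for PTGES3 and 9.54-fold higher for PTGES2.

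PTGES, the inducible microsomal enzyme that is functionally coupled to PTGS2, had the lowest level of the enzymes. It stood at 0.0971 FPKM in untreated and 0.167 FPKM in LATS2 OE cells, 1.72-fold higher after LATS2 induction, a log2 ratio of 0.78. Both values were intact, so this ratio has a single reading, but it rests on a transcript with less than 0.2 FPKM in either group.

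PTGIS, the cytochrome P450 enzyme that makes prostacyclin, was the only enzyme of the set with at least 1 FPKM in both groups and a ratio past the threshold. Its digits allow 1.247, 12.5 or 125 FPKM in untreated and 1.62, 16.2 or 162 FPKM in LATS2 OE cells. In the nearest reading it was 1.30-fold higher in LATS2 OE cells, a log2 ratio of 0.38. The next reading would turn the direction, with a level 7.68-fold lower, and the one after it would be 13.0-fold higher. The PTGIS locus on the minus strand of chromosome 20 runs from 48120411 to 48184707, within 33 bp of the annotated protein-coding gene.

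**Figure D1:**
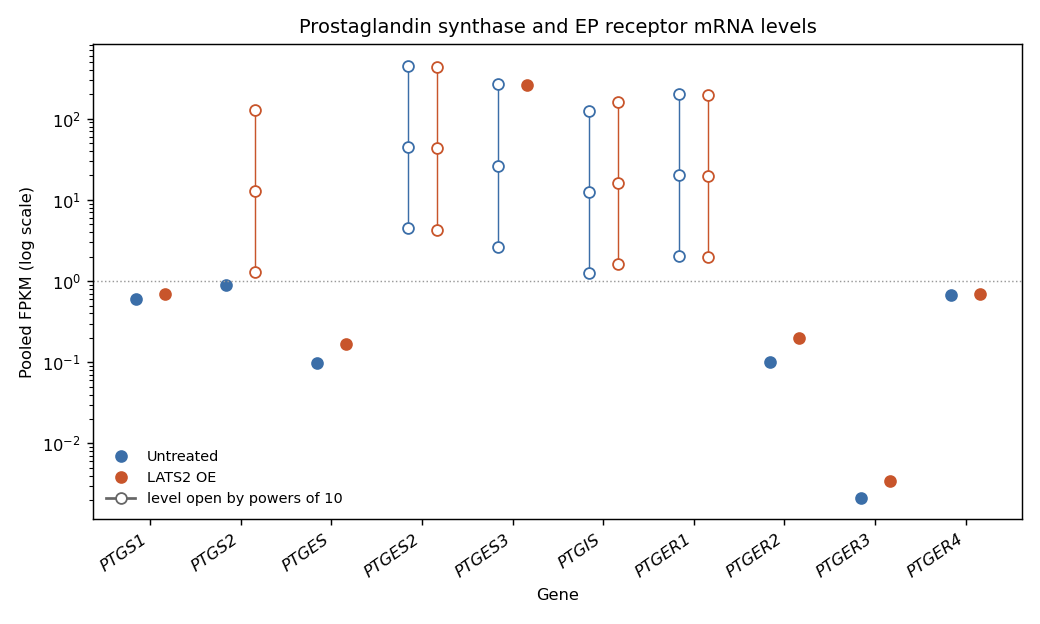
Pooled FPKM of the 10 genes (log axis) in untreated (blue) and LATS2 OE (orange) cells, 1 value per group and without error bars, as the table holds no values of single samples. Filled circles are intact values, and open circles joined by a line are the readings that the digits of a cell allow. PTGS1, PTGES, PTGER2, PTGER3 and PTGER4 lie below the dotted line at 1 FPKM in both groups.

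Among the EP receptors the order of levels was PTGER1, PTGER4, PTGER2 and PTGER3 in both groups, whichever reading holds for PTGER1. Whether neighbours in this order differ beyond the spread of samples is unknown. PTGER1, which encodes the calcium-coupled EP1, had digits that allow 2.04, 20.4 or 204 FPKM in untreated and 1.98, 19.8 or 198 FPKM in LATS2 OE cells. It was 1.03-fold lower in LATS2 OE cells in the nearest reading, a log2 ratio of -0.04. PTGER1 lies on the minus strand of chromosome 19 from 14583278 to 14586174, within 8 bp of the annotated protein-coding gene.

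PTGER4, which encodes the cAMP-coupled and stretch-responsive EP4, stood at 0.676 FPKM in untreated and 0.694 FPKM in LATS2 OE cells. The level was 1.03-fold higher in LATS2 OE cells, a log2 ratio of 0.04, so PTGER4 stood at nearly the same level in both groups. PTGER2, which encodes EP2, the other receptor that raises cAMP, stood at 0.102 FPKM in untreated and 0.199 FPKM in LATS2 OE cells. This 1.95-fold higher level, a log2 ratio of 0.96, was the widest log2 ratio of the 10 genes, at a level above that of 44.6% of all loci in LATS2 OE cells. PTGER4 had 6.65 times the level of PTGER2 in untreated and 3.50 times in LATS2 OE cells. PTGER4 lies on the plus strand of chromosome 5 from 40680032 to 40693837, entirely within the span of TTC33 on the opposite strand, and PTGER2 on the plus strand of chromosome 14 from 52781016 to 52795322 without an overlapping gene. The library kit named in the methods does not mark strand, so reads of PTGER4 and TTC33 in shared stretches cannot be told apart.

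PTGER3, which encodes the cAMP-lowering EP3, was close to absent, with 0.00216 FPKM in untreated and 0.00343 FPKM in LATS2 OE cells. The ratio of 1.59-fold therefore compares levels near 0. The locus of PTGER3 spans 228937 bp on chromosome 1, ends 33473 bp beyond the annotated gene and takes in ZRANB2, which has a row of its own with the same locus and at least 5.99 FPKM in each group. How reads of this locus were divided between both genes is unknown here.

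Set side by side, 5 of the 10 genes were past the threshold and higher in LATS2 OE cells, namely PTGS2, PTGIS, PTGES, PTGER2 and PTGER3, and 0 were past it and lower. Of all 20636 loci with a ratio, whatever their level, 15.8% were higher and 12.1% lower past the threshold. These counts have to be read by level. With a pseudocount of 1 FPKM added to the lowest reading, 0 of the 5 genes remained past the threshold, PTGS2 having a log2 ratio of 0.27 and PTGIS one of 0.22. A higher reading of both PTGIS levels would shrink less, and it was not run. Of 5 genes with at least 1 FPKM in 1 group or both, PTGS2 and PTGIS were higher past the threshold and 0 were lower, with a median log2 ratio of -0.02. Of 12556 loci at this level, 5.19% were higher and 5.55% lower past the same threshold, and their median log2 ratio was -0.0037. PTGS2 passed the minimum of 1 FPKM only through LATS2 OE cells, and every such locus is higher there by construction. Its place in this count therefore gives no support for a difference. Of the 338 loci with at least 1 FPKM in 1 group only, 32.8% were higher past the threshold. That share also counts loci that passed through untreated cells and cannot be higher. It was not computed for loci like PTGS2 alone, where it would be larger. With at least 1 FPKM required in both groups, 1 of 4 genes, PTGIS, was higher and 0 were lower, beside 4.43% higher and 4.98% lower of 12218 loci.

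Ratios past the threshold were frequent among low genes. Of 4 genes between 0.05 and 1 FPKM (PTGS1, PTGES, PTGER2 and PTGER4), 2 were higher past the threshold and 0 lower, with a median log2 ratio of 0.50. Of 5388 loci of this level, 28.0% were higher and 19.3% lower, with a median log2 ratio of 0.07. The values of PTGES and PTGER2 lay between the 75th percentile of these loci, a log2 ratio of 0.37, and the 95th percentile, a log2 ratio of 0.99. Below 0.05 FPKM, where PTGER3 stood, 40.9% of 2692 loci were higher past the threshold, so such a ratio was common there.

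**Figure D2:**
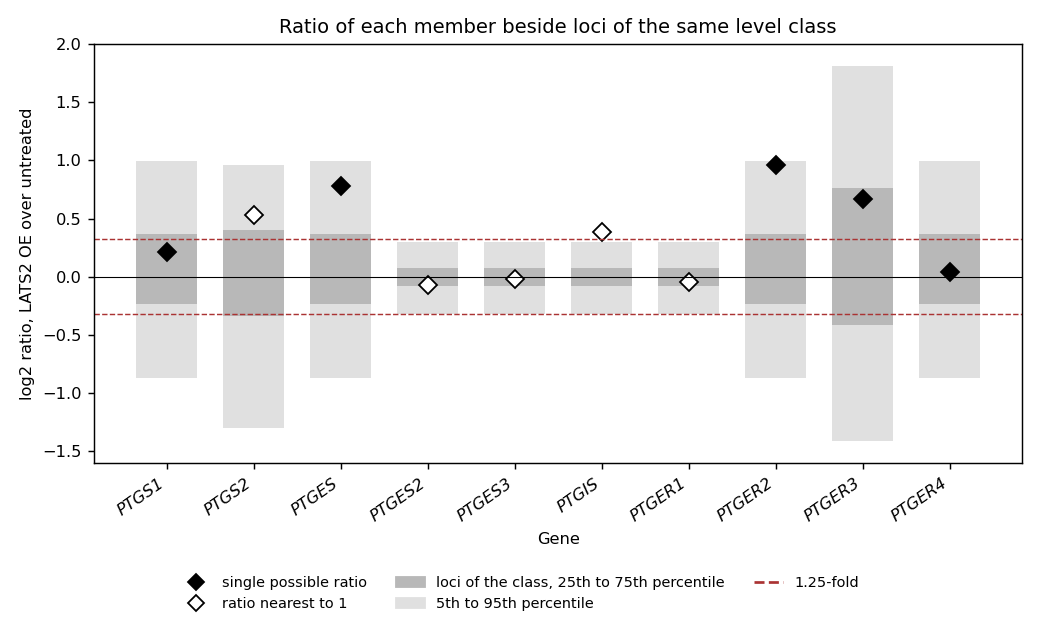
Log2 ratio of LATS2 OE over untreated cells for each gene (diamonds, filled where only 1 ratio is possible, open where the ratio nearest to 1 was taken), with the dashed lines at the threshold of 0.32 in either direction. Grey bars give the 25th to 75th and the 5th to 95th percentile of all loci of the same level class. PTGIS (0.38) lies above the 95th percentile of its class (0.30), and PTGS2, PTGES, PTGER2 and PTGER3 lie within the wider ranges of low or partly low loci. The class of PTGS2 also holds loci that reached 1 FPKM in untreated cells only, which are lower by construction.

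In the nearest reading, the other genes of the prostanoid pathway with at least 1 FPKM lay mostly within the threshold. This reading favours equal levels by its rule. From 8 gene lists, 92 genes were all found, in 91 loci, of which 51 had at least 1 FPKM in 1 group or both. Among these 51 loci, 5 were higher in LATS2 OE cells past the threshold and 0 were lower, beside the 5.19% and 5.55% of all loci given above, and the median log2 ratio was -0.0078.

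At the start of the pathway, 0 of 6 loci of phospholipases A2 with at least 1 FPKM were past the threshold, PLA2G15 with a log2 ratio of -0.02 and the joint locus of PLA2G4B and JMJD7 with -0.03 lying nearest to 0. PLA2G4A, the cytosolic enzyme that feeds the cyclooxygenases, had a log2 ratio of 0.12, and 13 of the 20 genes of this list were below 0.05 FPKM. Of 5 other synthases and reductases at this level, AKR1C3, a ketoreductase that makes prostaglandin F2 alpha and shares long stretches of sequence with its AKR1C neighbours, was 1.43-fold higher in LATS2 OE cells. Its reads could be split between these copies. AKR1B1 and CBR1, reductases of the same branch, had log2 ratios of -0.02 and 0.13, the locus of CBR1 being 17.7 times as long as the annotated gene. Of 2 other prostanoid receptors at this level, TBXA2R, the thromboxane receptor, was 1.42-fold higher, with 1.41, 14.1 or 141 FPKM in untreated and 1.99, 19.9 or 199 FPKM in LATS2 OE cells, and PTGFR, the prostaglandin F receptor, was 1.16-fold higher and within the range. The prostacyclin receptor PTGIR, which would receive the product of PTGIS, stood at 0.00606 FPKM in untreated and 0.0213 FPKM in LATS2 OE cells. Of 5 loci for transport and breakdown of prostaglandins with at least 1 FPKM, 0 were past the threshold, with HPGD, which inactivates prostaglandins, at -0.07 and PTGR1 at 0.04.

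In the branch that leads from the same substrate to leukotrienes, LTC4S, the synthase of leukotriene C4, was 1.30-fold higher, and 3 of the 4 loci at this level lay within the range, with ALOX5AP at -0.08 and the joint locus of LTB4R, LTB4R2 and NOP9 at -0.09. ALOX5 itself, the first enzyme of this branch, stood at 0.0343 and 0.0387 FPKM. Among 10 regulators of PTGS2 transcription or mRNA decay with at least 1 FPKM, ZFP36 and CEBPB were past the threshold. ZFP36, the decay factor that binds AU-rich elements, was 1.57-fold higher in LATS2 OE cells, but its locus is 33.5 times as long as the annotated gene. CEBPB, a transcription factor known to act on the PTGS2 promoter, was 1.46-fold higher, with a locus 4.40 times as long as the gene. CEBPD, its relative, had a log2 ratio of -0.0047 and ELAVL1, which stabilizes AU-rich mRNAs, one of -0.02. All 6 HSP90 genes and cochaperones that work with PTGES3 lay between -0.12 and -0.03, CDC37 and HSP90AB1 nearest to 0. In the cAMP branch behind EP2 and EP4, 0 of 13 loci with at least 1 FPKM were past the threshold, with ADCY7 at -0.0078 and PRKAR1B at -0.02. All ratios of loci with at least 1 FPKM in this and the foregoing paragraph rest on the nearest reading.

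**Figure D3:**
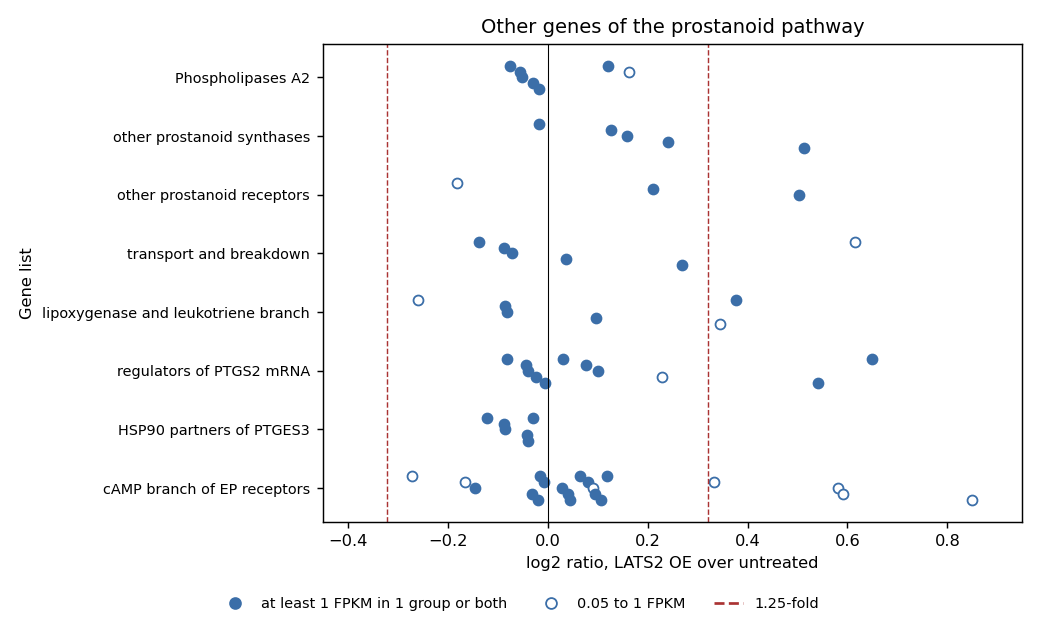
Log2 ratio of LATS2 OE over untreated cells (horizontal axis) for the other genes of the prostanoid pathway, 1 row per gene list and 1 point per locus, filled for loci of at least 1 FPKM in 1 group or both and open for loci of 0.05 to 1 FPKM. The dashed lines mark the threshold of 0.32 in either direction. Filled points past the line belong to AKR1C3, TBXA2R, LTC4S, ZFP36 and CEBPB, all on the side of higher levels in LATS2 OE cells.

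The 250 bases before the annotated start were read for 8 of the 10 genes, which have 11 starts in the RefSeq table (GRCh38.p14). PTGIS and PTGER3 have no entry. Shown are PTGS2, PTGES and PTGER2, whose levels were higher past the threshold, and PTGER4 as the EP receptor at nearly equal level, each 5′ to 3′ on the strand of the gene and ending at the base before the start. Capitals mark motifs found on either strand. The TEAD site was searched as the letters GGAATG. For the core of a cAMP response element, the letters searched were TGACG. The AP-1 site was written TGANTCA, where N stands for any base. A GC box was taken as the run GGGCGG, which Sp1 factors are known to bind. The TATA box, near which transcription by RNA polymerase II can begin, was searched as TATAAA. The NF-kB consensus is given by name alone, and its matches may overlap those of the other motifs.
PTGS2, chr1:186680424-186680673, minus strand: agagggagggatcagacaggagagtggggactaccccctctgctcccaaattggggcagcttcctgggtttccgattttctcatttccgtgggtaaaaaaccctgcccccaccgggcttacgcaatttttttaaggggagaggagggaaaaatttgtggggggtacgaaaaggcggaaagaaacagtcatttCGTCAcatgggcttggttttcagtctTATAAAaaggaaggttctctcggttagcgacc
PTGES, chr9:129753043-129753292, minus strand: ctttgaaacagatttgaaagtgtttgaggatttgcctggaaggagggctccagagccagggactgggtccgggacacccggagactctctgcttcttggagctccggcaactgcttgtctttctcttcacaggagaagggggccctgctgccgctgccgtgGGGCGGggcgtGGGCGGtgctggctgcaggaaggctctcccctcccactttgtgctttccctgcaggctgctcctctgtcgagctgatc
PTGER2, chr14:52314062-52314311, plus strand: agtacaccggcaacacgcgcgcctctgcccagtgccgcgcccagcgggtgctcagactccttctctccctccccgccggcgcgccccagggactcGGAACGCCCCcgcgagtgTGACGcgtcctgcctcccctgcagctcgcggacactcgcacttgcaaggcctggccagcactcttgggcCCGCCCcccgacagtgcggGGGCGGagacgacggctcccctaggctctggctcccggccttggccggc
PTGER4, chr5:40679665-40679914, plus strand: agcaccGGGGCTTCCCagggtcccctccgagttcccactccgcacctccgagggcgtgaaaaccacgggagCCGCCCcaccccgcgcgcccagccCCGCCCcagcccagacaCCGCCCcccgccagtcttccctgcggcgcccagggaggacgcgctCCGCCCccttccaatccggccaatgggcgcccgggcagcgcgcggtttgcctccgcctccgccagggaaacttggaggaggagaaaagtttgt

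The PTGS2 window held a TATA box that begins 32 bases before the start and the core of a cAMP response element, on the opposite strand, that begins 58 bases before it, and no GC box. The letters of a TATA box were also found in 1 of the 2 PTGS1 windows, on the opposite strand and 208 bases before the start. Among 35116 windows of this length in the table, 10.7% held the TATA box letters, 21.2% those of the core element and 42.6% a GC box. GC boxes were found in the windows of all the other 7 genes with an entry. The GC content of the window was 50.4% for PTGS2, 49.6% and 65.2% for the PTGS1 windows (the first being the one with TATA letters), 61.2% for PTGES, 74.0% for PTGER2 and 72.8% for PTGER4. The core of a cAMP response element was also found before PTGER2 and PTGES3. The strict NF-kB consensus was found before PTGER4, PTGES3 and PTGER2, and in 9.96% of all windows. Near matches, such as gggactaccc in the PTGS2 window, were not counted. A window without a match may therefore still hold a site. Sites for CEBPB were not searched. The TEAD letters, which YAP partners bind, were found in 0 of the 11 windows and in 11.9% of all windows, and the AP-1 letters in 0 of the 11 and in 6.57% of all. These are matches of letters in a short window and no binding was measured.

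The transcripts also differ in the AU-rich pentamer ATTTA, which decay factors such as ZFP36 bind. After the stop codon, PTGS2 had 22 copies in 2562 bases, and 2.43% of 18645 genes with a MANE Select transcript had as many or more. PTGER4 had 9 copies in 1357 bases, PTGES3 had 6 in 1130 and PTGER2 had 5 in 1144. PTGS1 had 3 copies although its stretch of 3159 bases is longer than that of PTGS2, PTGIS had 2 in 4046, PTGER3 had 2 in 948 and PTGES had 1 in 1262. PTGES2 and PTGER1 had 0 copies, in 452 and 94 bases. The median over all genes was 2 copies. The longer form TTATTTATT, found in 8.58% of all genes, was present once each in PTGS2 and PTGER2 and in 0 of the other 8 genes.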

How the data were processed

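The RNA of 8 samples (4 untreated, 4 LATS2 OE, grouped by sample title) was sequenced by the authors. Per the labels, reads were trimmed (Trimmomatic version 0.33), TopHat was used for alignment to hg19 and Cufflinks for FPKM. For TopHat, Cufflinks and the annotation no version was found. Per locus (29004 in all), the deposited table has a single pooled FPKM for either group. Its fold changes, test statistics, p-values, q-values and significance calls are the authors' own comparison and were not used. The fold changes bear on where the lost decimal points stood, but were set aside all the same, so levels and ratios rest on the FPKM digits alone and some directions, that of LATS2 included, could not be settled from them.

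Of 24849 deposited FPKM cells of at least 1, 98.2% have exactly 3 digits after the point and 0 have more, so a cell written this way may have had its point after any digit before the last 3. For 20636 loci above 0 in both groups the log2 ratio nearest to 0 was taken, without a pseudocount, and 8171 of them have 1 possible ratio. A ratio past 3.16-fold can be misread by a factor of 10. Of the 5388 loci of 0.05 to 1 FPKM, whose cells are intact, 2.25% were past 3.16-fold. The reading was tested on simulated data, in which pairs past 3.16-fold were not all read right. The threshold (1.25-fold, a log2 ratio of 0.32) carries no error estimate.

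The members, gene lists and threshold were chosen with earlier results of these data known. Named are all members, LATS2, CTGF, ANKRD1 and CYR61 and, of each pathway list among loci of at least 1 FPKM in 1 group or both, up to 4 genes past the fold and the 2 others nearest to 0. PLA2G4A, PTGIR and ALOX5, and genes in the closing section, were named after their values were seen. Gene spans are from GENCODE (release 44, lifted to GRCh37, the coordinates of hg19), and promoter windows from RefSeq (GRCh38.p14). Python (version 3.11.15), pandas (version 2.3.3), NumPy (version 2.4.6) and matplotlib (version 3.10.9) were used. Alternatives were pseudocounts, level filters, folds, centring and loci with 1 gene name. A few genes are not reported here.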

Additional observations from a re-analysis of the deposited data

How the results depend on the processing

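The signs of the 10 log2 ratios were not put to a test here, since a pseudocount added to both groups cannot change a sign. Centring on the median of all loci, a log2 ratio of -0.0037, could not either, as every ratio was further from 0. A shift under 0.1 was taken as unmoved, and centring moved 0 of the 10 ratios by that much. With a pseudocount of 1 FPKM at the lowest reading, log2 ratios shrank to 0.083 for PTGS1, 0.27 for PTGS2, 0.089 for PTGES, 0.22 for PTGIS, 0.12 for PTGER2 and 0.0018 for PTGER3. With a pseudocount of 0.1 FPKM they were 0.44 for PTGES, 0.57 for PTGER2 and 0.018 for PTGER3. With a pseudocount of 1 FPKM at the lowest reading, all 5 genes past the threshold fell below it. With 0.1 FPKM PTGER3 did. Of the pathway loci past the threshold, AKR1C3 (0.288), TBXA2R (0.315), LTC4S (0.287) and CEBPB (0.315) also fell below it with 1 FPKM at the lowest reading, and ZFP36 (0.57) did not. A pseudocount pulls low values together by construction. Higher readings of both groups for PTGIS and for these pathway loci would shrink less, and they were not run. The count of genes higher past the fold, 2 of 5 as reported, was 1 of 4 with at least 1 FPKM in both groups, 5 of 10 without a filter on level and 0 of 5 at 1.5-fold. Of all loci, 4.43%, 15.8% and 1.73% were higher under these settings. At 1.1-fold (15.2% of all loci), after centring and with loci of 1 gene name it was 2, and the count of lower genes was 0 under every alternative. Of the pathway lists, 5 loci were higher and 0 lower as reported, 17 higher and 3 lower of 76 without a filter, 1 higher and 0 lower at 1.5-fold and 9 higher and 1 lower of 51 at 1.1-fold. Of all loci, 12.1% were lower without a filter, 2.19% at 1.5-fold and 15.2% at 1.1-fold. No paired analysis was possible because the table holds 1 pooled value per group, and for the same reason leaving out a replicate was not run. The lost decimal points limit the levels of PTGS2 (LATS2 OE), PTGES2, PTGES3 (untreated), PTGIS and PTGER1.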

Other observations

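Of 13 loci of the pathway lists between 0.05 and 1 FPKM, 6 were higher in LATS2 OE cells past the threshold (a log2 ratio of 0.32), namely PDE4A, PDE4B, PDE4C and NR4A2 of the cAMP branch, SLCO2A1 and ALOXE3, and 0 were lower, beside 28.0% and 19.3% of all loci of this level. PDE4B, a cAMP-degrading phosphodiesterase, stood at 0.240 FPKM in untreated and 0.432 FPKM in LATS2 OE cells, 1.80-fold higher. Its relatives had ratios of 1.26-fold (PDE4A, from 0.580 to 0.731 FPKM), 1.496-fold (PDE4C, from 0.0486 to 0.0727 FPKM) and 1.07-fold (PDE4D, from 0.651 to 0.693 FPKM). PDE4C passed the minimum of 0.05 FPKM only through LATS2 OE cells, where it was higher. NR4A2, a nuclear receptor gene that cAMP induces, stood at 0.136 and 0.205 FPKM, 1.51-fold higher, whereas its relative NR4A3 stood at 0.114 and 0.102 FPKM. Of the 13 loci of the cAMP branch with at least 1 FPKM, NR4A1 and CREM included, 0 were past the threshold in the nearest reading. ADCY1, an adenylate cyclase of the same branch, stood at 0.0655 and 0.0543 FPKM, a ratio of 0.828. SLCO2A1, the transporter that takes up prostaglandins, stood at 0.247 and 0.379 FPKM, 1.53-fold higher. ALOXE3, of the lipoxygenase list, stood at 0.0601 and 0.0763 FPKM, 1.27-fold higher. The values of the loci between 0.05 and 1 FPKM were intact and have a single reading, and their spread between samples is unknown.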
